A study of Mus musculus with 11 samples.

Results

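Annexins are proteins that bind negatively charged phospholipids when calcium rises, through a conserved repeated core, while a variable N-terminal region gives each member its own partners. In macrophages they are known for the resealing of damaged membranes, for vesicle fusion and endosome traffic, for the handling of phosphatidylserine on dying cells and, in the case of Anxa1, for restraint of inflammation through formyl peptide receptors. The annexins were described here across 5 tissue macrophage populations, from mice with and without a CRE-driven conditional deletion of the transcription factor Zeb2. The members were taken by name from the gene table and were Anxa1, Anxa2, Anxa3, Anxa4, Anxa5, Anxa6, Anxa7 and Anxa11, 8 of the 27998 genes counted in every library. Other family members were at hand as well, and Anxa8, Anxa9, Anxa10 and Anxa13 stayed under 20 CPM (the gene's UMIs per 1000000 macrophage UMIs of a library) in all 11 libraries. The highest value among those was 5.86 CPM, for Anxa9 in splenic macs.

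Macrophages (macs) had been sorted from brain (microglia), colon (CMs), liver (Kupffer cells, KCs), lung (alveolar macs, AMs) and spleen (SMs) and profiled by droplet single-cell RNA-seq, which counts UMIs at the 3′ ends of transcripts. For each tissue there was 1 library from WT mice, which were Zeb2fl/fl and CRE negative, and 1 from Zeb2KO mice, and the liver had a further WT library from Nr1h3fl/fl mice that were CRE negative. All mice were on the C57Bl/6 background, of both sexes and generally 6 to 8 weeks old, and controls were littermates. The study's results, captions and methods give Clec4f-cre for the KCs, Itgax-cre for the AMs and Fcgr1-cre for microglia, CMs and SMs. GEO's labels differ for KCs and AMs, as they give Fcgr1-cre for all Zeb2KO libraries. By the study, Fcgr1-cre also acts in B cells, T cells and conventional dendritic cells, Clec4f-cre in a minor population of B cells and Itgax-cre in other CD11c-expressing cells. The study describes several Zeb2KO populations as mixtures of macs with and without full loss of Zeb2. With 1 library per tissue and genotype, no difference within a tissue has a replicate test. The intervals given are exact 95% Poisson or binomial intervals, and they cover counting error only. The 2 WT liver libraries, which differ in floxed allele, gave the only measure of spread between WT libraries: over 5550 genes at 20 CPM or more, 95% differed by less than 0.71 on the log2 scale (1.63-fold), and the median difference was 0.26.

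Total UMIs per library ranged from 11133411 to 47400786, and 2830 to 6974 macs per library were kept after filtering. Of the 75 annexin values at 20 CPM or more, the widest interval extended 13.9% to either side and the median was 4.08%. The marker list of each tissue's own macs was present in its libraries, with the microglial genes summing to 25806 CPM in WT and 16276 CPM in Zeb2KO microglia, and the KC genes to 16289 and 7610 CPM in WT and Zeb2KO KCs. In WT AMs 5 of the 8 general macrophage genes reached 20 CPM, and the alveolar list summed to 3428 CPM. Zeb2 itself was higher in the Zeb2KO library of every tissue, from 475 to 1747 CPM in microglia and from 375 to 476 CPM in CMs. Counting at the 3′ end keeps the recombined transcript, so the Zeb2 level does not check the deletion. No 2 libraries shared more than 1.45% of the barcodes of the smaller one.

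The 8 genes lie on 7 chromosomes (mouse GRCm38, GENCODE M21), Anxa7 (chr14:20455260-20480133, minus strand) and Anxa11 (chr14:25842156-25886804, plus strand) on the same one, and all are protein coding. Anxa2 is at chr9:69453620-69491795 on the plus strand, Anxa3 at chr5:96793339-96845966 on the plus strand and Anxa6 at chr11:54979108-55033445 on the minus strand. Zeb2 is a zinc finger factor known to bind CACCT and its E-box form CACCTG. RefSeq promoter windows (GRCm38.p6, 250 bases before to 50 after the start) were matched for 6 of the 8 members, as 8 windows. The windows of Anxa2, the annexin with the largest difference between genotypes, and Anxa7, the one with the most even difference, are shown 5′ to 3′ on the strand of the gene, with CACCT or its reverse complement AGGTG in capitals. They span chr9:69453433-69453732 on the plus strand and chr14:20479892-20480191 on the minus strand of GRCm38.p6.
Anxa2: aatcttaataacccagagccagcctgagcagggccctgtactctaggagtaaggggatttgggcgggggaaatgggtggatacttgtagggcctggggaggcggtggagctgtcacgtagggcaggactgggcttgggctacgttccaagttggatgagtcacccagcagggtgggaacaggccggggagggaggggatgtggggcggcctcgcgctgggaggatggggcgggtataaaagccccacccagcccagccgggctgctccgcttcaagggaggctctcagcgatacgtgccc
Anxa7: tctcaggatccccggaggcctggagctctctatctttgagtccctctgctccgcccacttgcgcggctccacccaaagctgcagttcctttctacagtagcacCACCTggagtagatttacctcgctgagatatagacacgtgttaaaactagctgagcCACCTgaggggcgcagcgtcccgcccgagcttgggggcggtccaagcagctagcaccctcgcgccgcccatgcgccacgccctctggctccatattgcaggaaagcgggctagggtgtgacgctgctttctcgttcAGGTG
The Anxa2 window held no CACCT on either strand, and this Anxa7 window held 3, each part of a CACCTG. A further Anxa7 window, at chr14:20480084-20480383 and overlapping the first, held 1 CACCT and no CACCTG. This is the first CACCT of the printed window, at its bases 104 to 108, where the further window ends before the G, so it is counted in both. In all, 6 of the 8 annexin windows held CACCT, against 51.9% of 32851 mouse promoter windows of the same length, and 2 of 8 held CACCTG, against 20.2%. The longer motif contains the shorter one, so the counts overlap, and a match is a description of the letters and not a binding site.

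In WT macs, the annexins differed widely between tissues. Of the 8 members, 7 were at least 4-fold apart between their highest and lowest tissue, where 37.6% of all 7679 genes tested passed that mark, and the median range was 3.81 on the log2 scale for the annexins and 1.62 for all genes. The members were chosen with earlier results of these data known, so this and later shares of all genes stand beside them as description. Ranges and gaps between tissues were taken after adding 1 CPM, apart from the bounds given for Anxa1. WT AMs had the highest level of Anxa1, Anxa2, Anxa4, Anxa5, Anxa7 and Anxa11, WT microglia that of Anxa3 and WT CMs that of Anxa6. Each tissue is 1 WT library, so tissue and library cannot be told apart. KCs and AMs were sequenced on another instrument than the other tissues.

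Anxa1, the glucocorticoid-induced ligand of formyl peptide receptors, was at 341 CPM in WT AMs, 129 CPM in CMs, 8.54 CPM in KCs, 4.26 CPM in SMs and 0 CPM in microglia. AMs and CMs thus stood far above the rest. None of 2830 WT microglia had an Anxa1 UMI. Taking 3 counts as the floor for a count of 0, up to 0.106% of cells could have had a UMI, which is no limit on the cells that express the gene, and against the same floor (0.243 CPM) WT AMs were at least 1401-fold and WT CMs at least 532-fold higher. Most of the low signal in liver and spleen came from few cells. In the WT KC library, 68 cells of a cluster led by Slpi, Fn1, Saa3, Alox15 and Prg4 held 81.5% of the Anxa1 UMIs. Their KC markers summed to 3279 CPM against 16799 CPM in the other WT KCs, at median depths of 13018.5 and 5261 UMIs. They were kept in the WT KC levels, and their cell type was not tested. In spleen, 8 cells of the WT library held 71.9% of the Anxa1 UMIs. Their neutrophil markers summed to 153704 CPM, and their red pulp markers to 3336 CPM against 26018 CPM in the other WT SMs. These 8 cells were kept in the WT SM levels, and the other WT SMs had 1.2 CPM of Anxa1. In the other WT liver library Anxa1 was at 0.555 CPM.

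Anxa2, which joins S100a10 in a complex at the inner face of the plasma membrane, ranged over 441-fold on the CPM + 1 scale. It was at 1621 CPM in WT AMs, 224 CPM in CMs, 84.4 CPM in SMs, 35.2 CPM in KCs and 2.68 CPM in microglia, where 33 UMIs were counted. Each step in this order was larger than the 0.71 between WT liver libraries. Anxa5, which binds phosphatidylserine and is widely used to stain dying cells, was at 862 CPM in AMs, 615 CPM in CMs, 374 CPM in KCs, 296 CPM in SMs and 29.5 CPM in microglia. AMs and CMs did not differ beyond that spread (0.49 log2), nor did KCs and SMs (0.34).

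Anxa3, an annexin abundant in neutrophil granules, had another order. WT microglia were at 601 CPM, KCs at 215 CPM, CMs at 157 CPM, AMs at 52.3 CPM and SMs at 49.8 CPM, an 11.8-fold range. KCs and CMs (0.45 log2) and AMs and SMs (0.07) were within the spread of the WT liver libraries. Anxa6, which carries a duplicated core and takes part in cholesterol and endosome traffic, was at 142 CPM in CMs, 82.3 CPM in SMs, 73.7 CPM in KCs, 34.9 CPM in AMs and 31.8 CPM in microglia. It was thus low where Anxa2 was highest, in AMs, and it did not differ there from microglia beyond the spread (0.13 log2).

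The remaining members are known mainly inside the cell. Anxa4, a membrane-repair and vesicle annexin, was at 249 CPM in WT AMs, 71.1 CPM in CMs, 27.3 CPM in SMs, 23.4 CPM in KCs and 14 CPM in microglia, and Anxa11, a partner of Pdcd6 that tethers RNA granules to lysosomes, was at 88.9, 44.5, 35.3, 27.1 and 12.6 CPM in the same order of tissues. Both genes shared 1 order of tissues, with the lower neighbours of Anxa4 (SMs, KCs and microglia) and the middle ones of Anxa11 (CMs, SMs and KCs) within the spread. Anxa7, which was first known for fusion of secretory granules and binds sorcin, spanned 2.77-fold, from 88.5 CPM in AMs through 66.8 CPM in SMs, 54.2 CPM in CMs and 48.2 CPM in microglia to 31.3 CPM in KCs, with every neighbouring pair within the spread. Of the 32 neighbouring pairs over the 8 genes, 14 were within it.

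**Figure D1:**
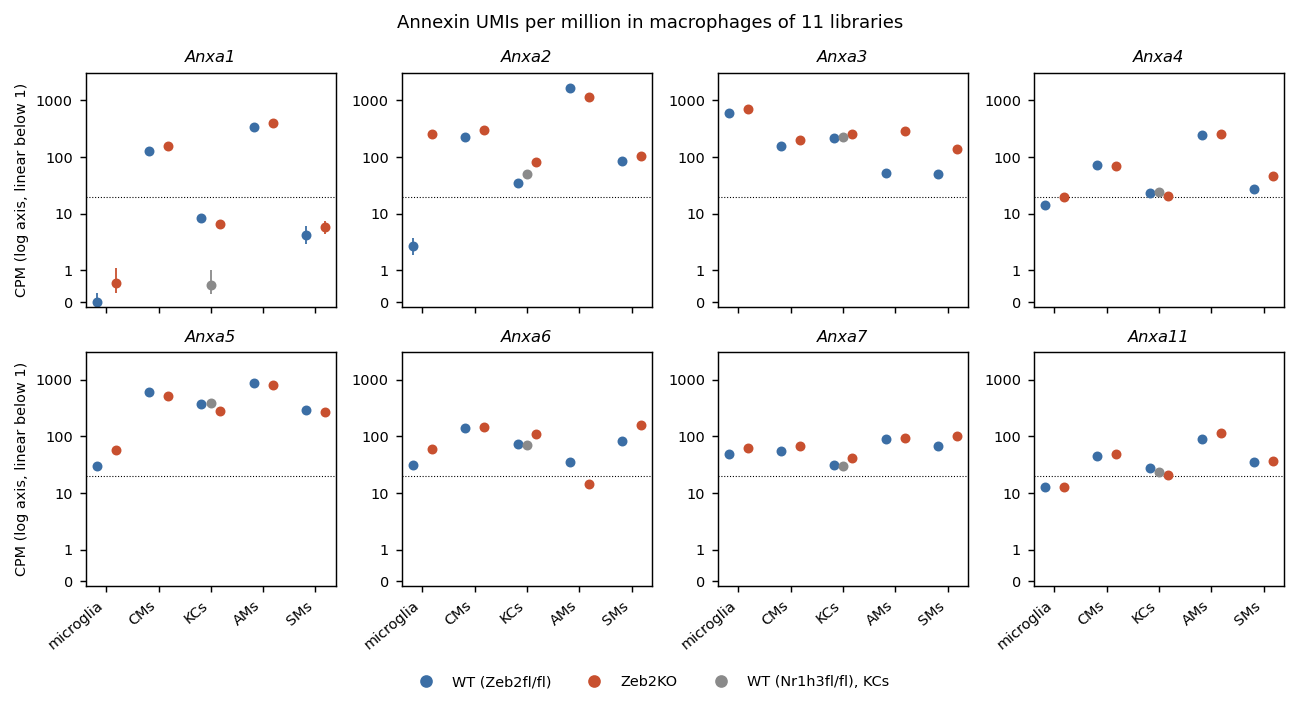
Level of each annexin in CPM of summed macrophage UMIs on a log axis, by tissue; points are single libraries (WT, Zeb2KO and, for KCs, the Nr1h3fl/fl WT library) and bars are exact 95% Poisson intervals. Anxa2 in microglia sits at 2.68 CPM in WT and 257 CPM in Zeb2KO, while the points of Anxa7 lie close together in every tissue.

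The next question was how annexin levels differed between Zeb2KO and WT macs of a tissue. A gene was called when its log2 ratio, taken after adding 1 CPM, was at least 1 in size and the higher library reached 20 CPM. The 8 genes gave 5 such calls over the 5 tissues: Anxa2 was higher in Zeb2KO microglia and KCs, Anxa3 was higher in Zeb2KO AMs and SMs, and Anxa6 was lower in Zeb2KO AMs. In microglia, 1 of the 5 annexins at 20 CPM or more was called, beside 8.34% of all genes (4.27% higher). In AMs 2 of 8 were called, beside 11.7% of genes (4.35% higher and 7.36% lower), in SMs 1 of 7, beside 3.47% (2.55% higher), and in KCs 1 of 7, beside 4.67% (3.45% higher). In CMs 0 of 8 were called, beside 1.56% of genes. The median log2 ratio over all 8 annexins was 0.56 in microglia (all genes -0.09) and 0.49 in SMs (-0.02), and it was nearer to 0 in CMs at 0.21 (0.05), AMs at 0.05 (-0.31) and KCs at 0.03 (0.02). The values for all genes are over genes at 20 CPM or more, and over the annexins at that level the medians were 0.88 in microglia, 0.61 in SMs and 0.23 in KCs, and as above in CMs and AMs.

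**Figure D2:**
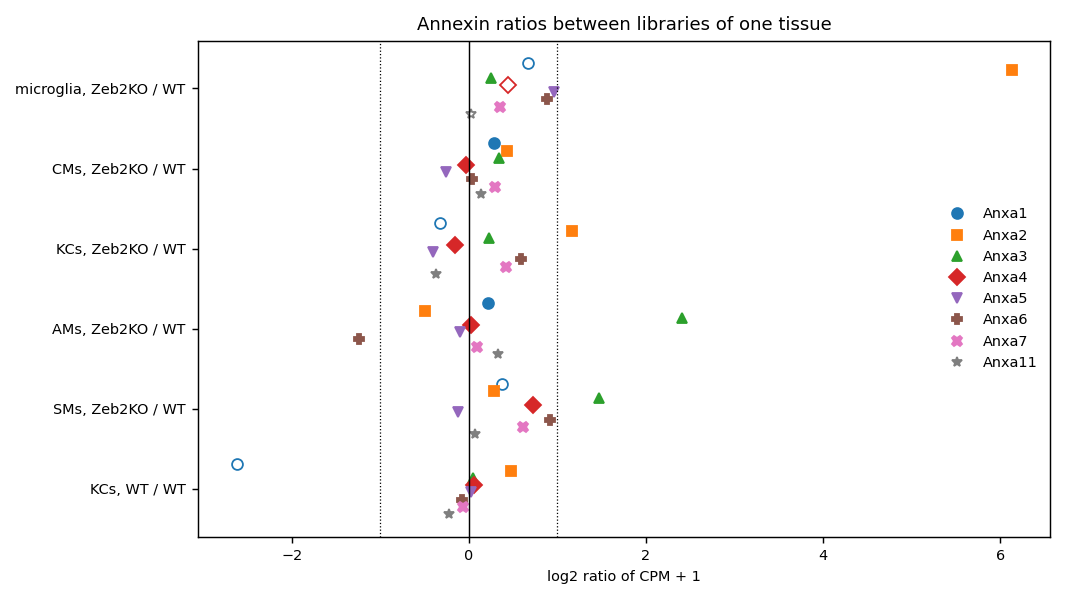
Log2 ratio of Zeb2KO over WT (CPM + 1) for each annexin, by tissue, and of Nr1h3fl/fl WT over Zeb2fl/fl WT in KCs. Dotted lines are at -1 and 1, the limits of the call, and open points are genes under 20 CPM in both libraries. Anxa2 reaches 6.13 in microglia and Anxa6 lies at -1.24 in AMs, while the 5 Zeb2KO over WT points of Anxa7 lie between 0.09 and 0.61.

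Anxa2 was the annexin with the largest difference. In microglia its level was 2.68 CPM (95% interval 1.84 to 3.76) in WT and 257 CPM (250 to 265) in Zeb2KO, a log2 ratio of 6.13. A UMI of Anxa2 was found in 0.989% of WT and 66.2% of Zeb2KO microglia, and in 0.247% and 22.7% of the cells after thinning each to 1000 UMIs. The median UMIs per cell were 4202 in WT and 4955 in Zeb2KO microglia, and these libraries held no cluster of another cell type in which to read a background. The difference spanned the whole population: Anxa2 lay between 245 and 324 CPM in all 5 Zeb2KO clusters of at least 50 cells, and between 1.76 and 25.5 CPM in the 3 WT clusters, the highest of which held 84 cells. The monocyte markers summed to 7.54 CPM in WT and 38.6 CPM in Zeb2KO microglia and the neutrophil markers to 197 and 459 CPM. The receptor genes Csf3r (196 and 362 CPM) and Cxcr2 (0.892 and 96.2 CPM) made up nearly all of the neutrophil sums, S100a8 was at 0.162 and 1.42 CPM, and the other 6 genes were at 0 UMIs in Zeb2KO and at 0 to 2 UMIs in WT. In Zeb2KO microglia 1 of the 6 monocyte markers reached 20 CPM. The cells had been gated on intermediate CD45 with F4/80 and CD64, and the part of monocytes in the Anxa2 level was not tested.

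In KCs, Anxa2 was at 35.2 CPM (32.9 to 37.7) in the Zeb2fl/fl WT library, 49.5 CPM (46.3 to 52.9) in the Nr1h3fl/fl WT library and 80.2 CPM (76.8 to 83.8) in the Zeb2KO library. The intervals of the 3 libraries do not overlap, and the log2 ratio of Zeb2KO over WT was 1.17 against the first and 0.68 against the second, under the call and under the spread of 0.71. With TMM the ratio against the second was 0.75, still under the call but just past 0.71, a spread taken without TMM. Against the second library 8.41% of genes were called and 0 annexins, and between both WT libraries 1.32% of genes and 0 annexins. Both ratios share the Zeb2KO library. The share of KCs with an Anxa2 UMI was 14.3%, 19.5% and 31.9% in these libraries, and 2.73%, 4.67% and 6.61% in thinned cells. Cells named by B cell or endothelial markers also held Anxa2, and they kept general macrophage genes. Against all other liver cells, those genes had a mean log2 difference of -0.757 in the B cell cluster. It was -0.578 and -0.0483 in the endothelial clusters. B cells in the WT and Zeb2KO liver libraries had 33.1 CPM (21 to 49.6, from 23 UMIs) and 61.8 CPM (44.2 to 84.2, from 40 UMIs), intervals that overlap, with a UMI in 11.9% and 18.5% of cells at median depths of 3452 and 3804.5 UMIs, and endothelial cells had 80.1 CPM (66.9 to 95.2) and 124 CPM (112 to 136), with a UMI in 41.7% and 52% of cells at median depths of 6886 and 6998 UMIs. The KCs, at median depths of 5331 and 5864 UMIs, lay between both cell types in these shares, at depths that differ between the types. The part of free RNA or of mixed droplets in these values was not tested. Without the Slpi-led cluster, an alternative chosen after seeing the data, the log2 ratio was 1.42. A cluster led by Cx3cr1, Cd207 and Ccr2 held 28 cells of the Zeb2fl/fl WT, 14 of the Nr1h3fl/fl WT and 379 of the Zeb2KO library. Markers of dividing cells summed to 65.7, 94.9 and 197 CPM in the same order. The part of either in the Anxa2 level was not tested.

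Elsewhere Anxa2 was not called. In AMs it was at 1621 CPM in WT and 1142 CPM in Zeb2KO, a log2 ratio of -0.50, which was -0.29 with TMM and -0.19 relative to the median gene, and nearly all cells of both libraries had a UMI (98.8% and 98.1%). In CMs it was at 224 and 302 CPM and in SMs at 84.4 and 103 CPM. These 3 ratios lie within the spread of 0.71, so they give no direction for Anxa2 in AMs, CMs or SMs. Fibroblasts in the colon sorts held more Anxa2 than the CMs, 1142 CPM in WT and 907 CPM in Zeb2KO.

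Anxa3 was higher past 2-fold in Zeb2KO macs of the lung and spleen, where WT macs had the lowest levels, and within the spread of 0.71 in the other 3 tissues. In AMs it was at 52.3 CPM (49.7 to 55.1) in WT and 283 CPM (278 to 288) in Zeb2KO, a log2 ratio of 2.41. Because the median of all genes was -0.31 in AMs with total-UMI scaling and -0.09 with TMM scaling, this ratio stood at 2.72 relative to the median gene and was 2.63 with TMM. A UMI of Anxa3 was found in 17.9% of WT and 60.3% of Zeb2KO AMs (5.18% and 21% after thinning), at median depths of 3587 and 5681 UMIs. The gene was uneven among Zeb2KO AMs. A cluster of 3263 cells led by S100a8 and S100a9, which encode calprotectin, had 314 CPM, a cluster of 469 cells had 467 CPM, and a cluster of 1758 cells led by Spag11b, Ddah1 and Ffar2 had 48.4 CPM. That last value lay just under the range of 49.4 to 90.7 CPM over the 8 clusters of WT AMs.

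The highest Anxa3 level in lung, 680 CPM, was in 224 Zeb2KO cells led by C1qa, Cd74 and C1qb. Their alveolar marker genes summed to 295 CPM against 2227 CPM in the other Zeb2KO AMs, their general macrophage genes to 3864 against 829 CPM and their monocyte genes to 428 against 59.2 CPM. Without them, the log2 ratio of Anxa3 in AMs was 2.31. The neutrophil marker list summed to 59.5 CPM in WT and 23897 CPM in Zeb2KO AMs, nearly all of it S100a8 and S100a9. Of the other 7 genes on it, Cxcr2 went from 2.7 to 178 CPM, Csf3r from 12 to 96 CPM and Mmp8 from 21.8 to 58.2 CPM, Ltf and Retnlg stayed under 4 CPM, and Ngp and Camp, which mark granules of neutrophil precursors, were at 0 UMIs in both genotypes. In the C1qa-led cells that list summed to 11568 CPM, against 24525 CPM in the other Zeb2KO AMs. The monocyte list summed to 8.89 CPM in WT and 77.1 CPM in Zeb2KO AMs. The sort had taken CD11c+SiglecF+F4/80+CD64+ cells, and the part of either list's cells in the Anxa3 level was not tested.

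In SMs, Anxa3 was at 49.8 CPM (44.9 to 55.1) in WT and 140 CPM (132 to 148) in Zeb2KO, a log2 ratio of 1.47. Cells with a UMI made up 10.9% of WT and 29.9% of Zeb2KO SMs, at median depths of 2174.5 and 2684 UMIs, and 5.19% and 13.3% after thinning, for which 261 WT cells with under 1000 UMIs were left out. In splenic B cells the shares were 4.05% and 8.3% at median depths of 2261 and 3177 UMIs, so both SM shares lay above them. These B cells pool a cluster low in general macrophage genes (mean log2 difference -2.86 from the other spleen cells) and another that kept much of them (-0.219). A single cluster held 708 Zeb2KO cells, 24.6% of the library's macs. Over both genotypes it was led by the neutrophil genes S100a8, S100a9, Camp and Ngp, and it was kept among the SMs. The cluster's Zeb2KO cells had 265 CPM of Anxa3, and the other Zeb2KO SMs had 94.2 CPM. In its Zeb2KO cells S100a8 was at 467 CPM, S100a9 at 293 CPM, Itgam at 173 CPM, Cd209b at 152 CPM and Camp at 59.7 CPM, against 11, 8.96, 16, 12.2 and 1.64 CPM in the other Zeb2KO SMs. Its neutrophil markers summed to 992 CPM against 65.1 CPM in the other Zeb2KO SMs, and its red pulp markers summed to 11198 against 26690 CPM. Monocyte markers, at 531 against 115 CPM, and dendritic cell markers, at 122 against 36.4 CPM, also summed to more in this cluster. Its general macrophage markers were close to those of the others, at 8068 and 8221 CPM. Over whole libraries the neutrophil list summed to 435 CPM in WT and 312 CPM in Zeb2KO SMs, and without this cluster, whose 8 WT cells carried most of the WT sum, to 48.5 and 65.1 CPM. The sort had taken CD64+F4/80+ cells and left out cells with Ly6C, Ly6G or SiglecF on their surface. The part of such cells in the Anxa3 level was not tested. Without this cluster, chosen after seeing the data, the log2 ratio of Anxa3 in spleen was 0.91 and no annexin was called there.

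In the other 3 tissues Anxa3 differed little. It was at 601 and 713 CPM in WT and Zeb2KO microglia, 157 and 198 CPM in CMs, and 215 and 252 CPM in KCs, with 223 CPM in the Nr1h3fl/fl WT library. These log2 ratios, between 0.23 and 0.34, were within the spread of 0.71. Most microglia of both genotypes had an Anxa3 UMI (87.8% and 94.8%).

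Anxa6 was lower in Zeb2KO AMs past the 2-fold call, and in Zeb2KO microglia and SMs it was higher by more than the spread between the WT liver libraries. In AMs it was at 34.9 CPM (32.7 to 37.2) in WT and 14.2 CPM (13 to 15.4) in Zeb2KO, a log2 ratio of -1.24. This was -1.02 with TMM, still past the call, and -0.93 relative to the median gene, under the call. The shares of AMs with a UMI were 12.6% and 7.21%, or 3.63% and 1.6% after thinning, in a library that was deeper per cell in Zeb2KO. Within Zeb2KO AMs the gene had the reverse order of Anxa3, with 6.16 CPM in the S100a8-led cluster, 2.2 CPM in the cluster of 469 cells and 33 CPM in the Spag11b-led cluster, the latter near the WT level. The C1qa-led cluster, at 55.9 CPM, had the most of both genes, and without it the log2 ratio of Anxa6 was -1.46.

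In the other tissues Anxa6 was at 31.8 and 59.3 CPM in WT and Zeb2KO microglia (log2 ratio 0.88), 142 and 145 CPM in CMs (0.04), 73.7 and 111 CPM in KCs (0.59) and 82.3 and 156 CPM in SMs (0.92). None reached the 2-fold call, and the values in microglia and SMs were past the spread of 0.71. In spleen the 708-cell cluster again carried much of the difference, with 318 CPM against 97.3 CPM in the other Zeb2KO SMs, and without it the log2 ratio was 0.24. Splenic B cells had 77.9 and 81 CPM of Anxa6 in the WT and Zeb2KO libraries.

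**Figure D3:**
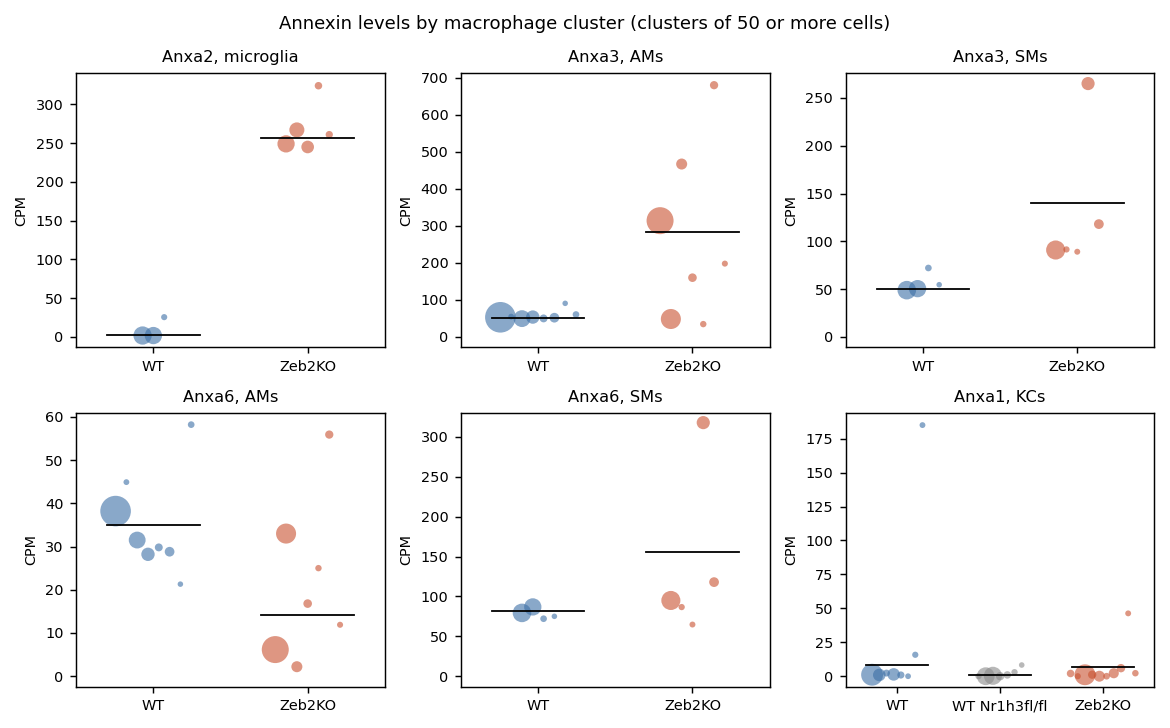
CPM on a linear axis in each cluster of at least 50 macrophages, by library, for Anxa2 in microglia, Anxa3 and Anxa6 in AMs and SMs, and Anxa1 in KCs. Each point is 1 cluster of 1 library, sized by its cells, and black lines are the levels of whole libraries. Anxa2 lies between 245 and 324 CPM in all Zeb2KO microglial clusters, while Anxa3 and Anxa6 spread from 34.6 to 680 CPM and from 2.2 to 55.9 CPM among Zeb2KO AM clusters.

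The remaining annexins were not called in any tissue. Anxa5 was at 29.5 CPM in WT and 58.3 CPM in Zeb2KO microglia, a log2 ratio of 0.96, or 1.03 with TMM scaling, which passes the call, and the share of cells with a UMI was 10.8% in WT and 23.2% in Zeb2KO (2.44% and 5.15% after thinning). In the other tissues it was lower in Zeb2KO, at 615 and 513 CPM in CMs, 374 and 284 CPM in KCs (379 CPM in Nr1h3fl/fl WT), 862 and 805 CPM in AMs and 296 and 272 CPM in SMs, with log2 ratios from -0.40 to -0.10 that lie within the spread and, in AMs, change sign with TMM. Anxa1 was at 129 and 157 CPM in CMs and 341 and 398 CPM in AMs, and under 10 CPM in both genotypes elsewhere. In Zeb2KO microglia 10 Anxa1 UMIs were counted, in 0.154% of cells.

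Anxa4 was at 71.1 and 69.4 CPM in CMs, 23.4 and 20.9 CPM in KCs, 249 and 252 CPM in AMs and 14 and 19.4 CPM in microglia, and at 27.3 and 45.8 CPM in SMs, where the log2 ratio of 0.73 just passed the spread. Anxa11 was at 88.9 and 112 CPM in AMs, 44.5 and 49.1 CPM in CMs, 35.3 and 37.1 CPM in SMs, 27.1 and 20.7 CPM in KCs and 12.6 and 12.8 CPM in microglia, all within the spread. Anxa7 had small positive log2 ratios throughout: 0.61 in SMs, 0.35 in microglia, 0.42 in KCs, 0.09 in AMs and 0.30 in CMs. Each of these is within the spread on its own, and the share of cells with an Anxa7 UMI was 14.8% and 25.6% in WT and Zeb2KO SMs (6.99% and 9.44% after thinning). The antisense gene Anxa11os was at most at 1.1 CPM.

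Whether a shift was shared by the tissues was tested over the 5 WT and Zeb2KO pairs with tissue as the block, by edgeR's quasi-likelihood test on summed counts of all 12064 genes kept, with Benjamini-Hochberg adjustment. No gene was called (0%), so no annexin was, while 12.1% of genes had an unadjusted p under 0.05. Anxa7 had the smallest p among the annexins (0.00203, adjusted 0.221), with a log2 fold change of 0.42 ± 0.08 (SE) and a higher value in Zeb2KO in 5 of 5 pairs. With DESeq2, which called 2.87% of genes (1.97% higher in Zeb2KO), Anxa7 was the 1 annexin called, at a log2 fold change of 0.41 ± 0.10 and an adjusted p of 0.00518. Anxa3, also higher in 5 of 5 pairs, had an edgeR log2 fold change of 0.97 ± 0.41 and an adjusted p of 0.417, and Anxa2, higher in 4 of 5, had 1.12 ± 0.94 and 0.636. The mean log2 ratio over the 5 pairs was 0.35 ± 0.19 (SD) for Anxa7, 0.94 ± 0.98 for Anxa3 and 1.50 ± 2.66 for Anxa2, and the exact two-sided sign-flip permutation p was 0.062 for Anxa7 and Anxa3, the smallest that 5 pairs can give, and 0.25 for Anxa2. For the other 5 members it lay between 0.25 and 1. The tissues thus varied among themselves by more than the mean shift for Anxa2 and Anxa3, and by less for Anxa7.

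The annexins were also described in Zeb2KO cells of clusters set apart from WT, those whose share of Zeb2KO macs was at least 9 times that of WT macs, and in the remaining Zeb2KO cells of the same library. This split does not tell cells with full loss of Zeb2 from the rest. Ms4a1 was among the genes the study used to find cells with full loss in KCs and CMs. It was at 132 CPM apart and 22.6 CPM in the rest in KCs, and at 129 and 5.31 CPM in CMs. In SMs it was at 174 and 89.9 CPM, and in AMs at 26.8 and 20.3 CPM. The study named Siglecf and Epcam for such cells in SMs, and Epcam and Cd101 in AMs. Siglecf was at 17.4 CPM apart and 4.61 CPM in the rest in SMs, 209 and 26.6 CPM in KCs and 12.4 and 0.992 CPM in CMs. In AMs it was at 68.8 and 74.5 CPM. AMs had been sorted with SiglecF on their surface, and CMs and SMs without it. Epcam and Cd101 were not read for this split, so Ms4a1 is no check of it in AMs. Clusters apart held 99.4% of Zeb2KO microglia, 91.4% of AMs, 80% of SMs, 74.7% of KCs and 22.7% of CMs. The clusters were drawn on expression, so these values are descriptions. In microglia 21 cells remained, too few to compare, and with clusters drawn at resolution 0.4 no Zeb2KO CMs were set apart, so the CM values below rest on the finer clustering. Anxa3 was at 296 CPM apart and 143 CPM in the rest in AMs, at 146 and 103 CPM in SMs and at 278 and 180 CPM in KCs, and at 197 and 198 CPM in CMs. Anxa6 was at 125 CPM apart and 74.1 CPM in the rest in KCs, 164 and 107 CPM in SMs, 167 and 139 CPM in CMs and 13.8 and 18.1 CPM in AMs. Anxa2 was at 71.3 CPM apart and 105 CPM in the rest in KCs, 102 and 113 CPM in SMs, 358 and 286 CPM in CMs and 1155 and 1001 CPM in AMs. Anxa5 was at 323 and 569 CPM in CMs, and its log2 difference in the other tissues lay between -0.18 and -0.02. Anxa4 was at 46.6 and 76 CPM in CMs with log2 differences from -0.46 to 0.04 elsewhere, and Anxa7 and Anxa11 differed by log2 values from -0.40 to 0.47. Anxa1 in KCs was at 1.14 CPM apart and 21.4 CPM in the rest, which hold the Slpi-led cluster.

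The 11 genes listed as annexin partners and receptors, S100 proteins, sorcin, Pdcd6 and formyl peptide receptors among them, gave 9 higher and 1 lower call. S100a11, a partner of Anxa1, was called higher in 4 tissues: 5.43 to 37.6 CPM in microglia, 268 to 559 CPM in CMs, 15.5 to 255 CPM in KCs and 17.8 to 90.2 CPM in SMs. In CMs it was uneven, at 1361 CPM in the Zeb2KO clusters set apart from WT and 325 CPM in the remaining Zeb2KO CMs. S100a10, the partner of Anxa2, went from 14.4 to 166 CPM in microglia, where Anxa2 also differed most. In KCs, S100a10 already differed between the WT libraries, at 35.1 CPM in Zeb2fl/fl and 8.99 CPM in Nr1h3fl/fl. In AMs S100a6 went from 17.9 to 331 CPM, S100a4 from 5.1 to 21.3 CPM and Sri, which encodes the Anxa7 partner sorcin, from 212 to 519 CPM, while Fpr2, a receptor of Anxa1, went from 183 to 89.4 CPM. This log2 ratio of -1.03 was -0.81 with TMM, under the call, and -0.72 relative to the median gene. The remaining call was Fpr1 in CMs, from 26.1 to 57.5 CPM. The list was chosen with earlier results of these data known, so its counts are descriptions. In counts, 3 of 10 partners at 20 CPM or more were higher in AMs, beside 4.35% of all genes, and 1 was lower, beside 7.36%. CMs gave 2 of 10 higher, beside 1.08%, microglia 2 of 5, beside 4.27%, SMs 1 of 7, beside 2.55%, and KCs 1 of 8, beside 3.45%. Against the Nr1h3fl/fl WT library 3 of 8 partners were higher in KCs (S100a10, S100a11 and S100a6), beside 4.31%, with the Zeb2KO library shared. The median log2 ratio of these partners was 0.25 in AMs (all genes -0.31), 0.46 in CMs (0.05), 0.26 in microglia (-0.09), 0.07 in SMs (-0.02) and 0.11 in KCs (0.02).

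Of the 14 other membrane repair genes listed, such as dysferlin, copines and calpains, none was called in microglia, CMs, KCs or SMs, and 2 of 10 were lower in AMs, beside 7.36% of all genes. These were Cpne5, a copine, from 204 to 12.1 CPM and Capn1, a calpain, from 131 to 45 CPM. The median log2 ratio of the repair genes at 20 CPM or more was -0.35 in AMs (all genes -0.31), -0.21 in KCs (0.02), -0.09 in SMs (-0.02), -0.01 in CMs (0.05) and 0.00 in microglia (-0.09), the last over 4 genes.

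As a description with no test, the genes most like each annexin across the 11 libraries were taken by Pearson's r of log2 (CPM + 1) over 8024 genes. These libraries share tissue, instrument and depth in part, and r follows the tissues. Nearest to Anxa1 were Pdlim1 (0.99), Ahnak (0.99) and Clec4e (0.96), to Anxa2 Plxnc1 (0.92), Plec (0.90) and Rab11fip1 (0.90), and to Anxa3 Cd37 (0.95), Creb3 (0.94) and Spcs2 (0.94). Anxa5 was nearest to Cd36 (0.98), Anxa4 to Prkar2b (0.98), Anxa7 to Dusp5 (0.97) and Anxa11 to Fabp5 (0.99), while Anxa6 had r of 0.92 with Gng12, Il10 and Ciita. Among the annexins, Anxa4 and Anxa11 were most alike (0.95), and Anxa3 had a negative r with all 7 others, from -0.66 to -0.21.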

How the data were processed

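The authors deposited UMI counts as whole numbers, 1 gene by barcode matrix per library, made with Cell Ranger and STAR on mm10 after sorting CD64+F4/80+ macs of each tissue. The study also aggregated libraries, a step that can thin reads to a common depth, and whether the deposited counts precede it is not given in the sources used here. The depths and shares of cells with a UMI are therefore those of the deposited tables. Barcodes beyond 3 median absolute deviations in UMIs, genes or mitochondrial share were removed (4.66 to 9.22% per library). Each tissue was clustered with scanpy 1.11.5 and leidenalg 0.10.2 (2000 variable genes, 30 components, 15 neighbours, resolution 0.8), and clusters of other cell types were left out by listed markers (at most 26.7% of a library, in WT SMs). No doublet caller was run, and leaving out the 5% of cells with the most UMIs served as a check. Summed macrophage counts were scaled to CPM. Ratios used a pseudocount of 1 CPM, and calls a 2-fold difference at 20 CPM or more. Samples were grouped by GEO's labels. Pairs of libraries were tested with edgeR 4.0.16 (tissue as a block, TMM) in R 4.3.3, with DESeq2 1.42.0 as an alternative and a sign-flip permutation test for single genes. The scripts were tested on simulated data.

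All members were named, with values, whatever they did. Of the partner and repair lists, called genes were named, and the 3 genes of highest r were taken for each annexin. The members and lists were chosen with earlier results of these data known. Alternatives were TMM scaling, other pseudocounts and floors, other cell filters and clusterings, the other WT KC library, each pair left out and no block. Leaving out single clusters was added after seeing the data. Proliferating cells were kept.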

Additional observations from a re-analysis of the deposited data

Results flagged for a closer look

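Anxa6 was marked because its difference between genotypes had opposite signs in different tissues. The log2 ratio of Zeb2KO over WT was 2.12 higher in microglia than in AMs, and 2.16 higher in SMs than in AMs, with each tissue represented by 1 library per genotype. Whether these differences exceed the spread between mice was not tested. Without the 708-cell cluster, the log2 ratio of Anxa6 in SMs was 0.24 in place of 0.92, and the difference from AMs was 1.49.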

How the results depend on the processing

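Of the counts reported, 71 values under the alternatives stayed within 1.5 times the main count and 6 did not. With TMM scaling, 2 annexins were called in microglia (Anxa2 and Anxa5) in place of 1. In AMs, TMM also removed the call of the partner Fpr2 (-0.81). With the Nr1h3fl/fl WT library as control, 0 were called in KCs in place of 1, and 3 partners in place of 1. Without the 708-cell cluster, added after seeing the data, 0 were called in SMs in place of 1. Between the WT KC libraries, where 0 annexins and 1.32% of genes were called, a floor of 5 CPM and no floor each gave 1, Anxa1. In the blocked fit over the 5 pairs, DESeq2 called 1 annexin (Anxa7) where edgeR called 0. No replicate block, with the pairing by tissue left out, also gave 0 annexins, and leaving out each pair in turn gave 0 to 0. The shared log2 fold change of Anxa5 changed sign without the block (-0.08) and ranged from -0.17 (without microglia) to 0.20 over the pairs left out, and that of Anxa11 from -0.04 (without AMs) to 0.23, and no cause was tested. With clusters drawn at resolution 0.4, no Zeb2KO CMs lay in clusters apart, Anxa1 in KCs was at 1.35 CPM apart and 11.8 CPM in the rest (log2 -2.44), Anxa3 in AMs at 294 and 148 CPM (0.98) and Anxa6 in KCs at 150 and 74.4 CPM. Of the single annexin values, 519 kept their call or lack of one, 4 gained a call, 2 lost one and 3 were counted as changing sign. Ratios within a tissue, or between the WT KC libraries, were counted as changing sign only if called. The 519 thus include uncalled ratios that changed sign, such as Anxa5 in AMs (-0.10, and 0.12 with TMM). Values under 20 CPM rest on few UMIs, and with 1 library per group the spread between mice is unknown.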
